A study of Mus musculus with 40 samples.

Results

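Colon tumors and healthy colon were compared in sorted epithelial cells and in sorted stromal cells, and the comparison described here is the difference between those differences: how far the change from healthy to tumor epithelium departed from the change from healthy to tumor stroma, gene by gene. It used 16 of the 40 RNA-seq libraries of the series, 4 in each of 4 groups. Tumor epithelial and tumor stromal libraries came from mice with the transgene Cdx2CreERT2 and a floxed Apc gene (Apc fl/fl) of strain C57Bl6/Sv129, which received 1 intraperitoneal injection of 25 mg/kg Tamoxifen in corn oil at 8 to 10 weeks of age. Healthy epithelial and healthy stromal libraries came from C57Bl6 mice with no transgene and no agent, whose age the labels do not give separately. Epithelial cells were sorted as EpCAM+ CD45- and stromal cells as EpCAM- CD45-. The Cdx2 promoter directs the Tamoxifen-dependent Cre to the caudal intestinal epithelium, and the stromal gate was meant to take cells outside that lineage. Tumor and healthy mice differed in strain, transgene and Tamoxifen as well as in the tumor, and the parts of these in any tumor change cannot be told apart. Titles named 13 animals, 3 of which gave both cell types, and nothing else in the labels tied libraries to litters or days. Of 45706 genes in the count table, 20901 passed the filter on low counts and were tested. The difference of differences is written below as the interaction, and it is positive where tumor minus healthy was larger in epithelium than in stroma.

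Apc is part of the cytoplasmic complex that marks beta-catenin for degradation, and its loss in colon epithelium leaves beta-catenin free to switch on Wnt target genes without a Wnt signal. In healthy colon, Wnt ligands and R-spondins made by fibroblasts under the crypts keep stem cells dividing, while BMP signals towards the surface accompany maturation into absorptive colonocytes and mucus-secreting goblet cells. The EpCAM- CD45- gate is meant to hold fibroblasts, smooth muscle, pericytes and endothelium, and in bulk libraries a smaller share of one cell type and less RNA per cell cannot be told apart.

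Marker levels were checked before any comparison, in CPM after TMM scaling. CPM is the reads of a gene relative to the library's total counts times its TMM factor, so a factor under 1 raises it. Total counts ran from 12815805 to 38002939, the highest in healthy epithelial 4. TMM factors ran from 0.1692 in healthy epithelial 4 to 1.9717 in healthy stromal 3, and every CPM value below depends on them. The libraries labelled tumor stromal 1 and 2 stood apart from tumor stromal 3 and 4. Their 13 epithelial markers summed to 1758 and 1263 CPM, which was 93.5% and 67.2% of the tumor epithelial mean, against 379.4 and 240.6 CPM in tumor stromal 3 and 4 (20.2% and 12.8%) and 31.1 to 127.3 CPM in healthy stroma. Epcam itself, the gene behind the gate, was at 303.8, 221.4, 72.3 and 31.8 CPM in the 4 tumor stromal libraries. Their endothelial markers summed to 210.9 and 247.7 CPM against 3523 and 3772 CPM, and their genes ranked as those of tumor epithelium did (mean Spearman rho 0.94 and 0.926, against 0.773 and 0.732). These libraries are called the doubted pair below, and results are given with and without them. Fibroblast markers summed to 4028 to 20332 CPM in healthy stroma and to only 102.7 to 352.5 CPM in all 4 tumor stromal libraries. Tumor stromal 3 and 4 also held neutrophil markers at 3357 and 1383 CPM, although the gate excluded CD45+ cells, against at most 96.3 CPM in the other 14 libraries. In healthy epithelial 4, mitochondrially encoded genes took 83.9% of counts and B and plasma cell markers reached 562.9 CPM. Healthy stromal 4 had the highest fibroblast sum and the lowest endothelial sum of its group (607.7 CPM against 2562 to 3156). Xist was under 10 CPM in 3 of 4 tumor epithelial, 0 of 4 healthy epithelial, 3 of 4 tumor stromal and 1 of 4 healthy stromal libraries. The tumor libraries with low Xist had the Y-linked gene Kdm5d at 31.3 to 68.6 CPM. Healthy epithelial 2 to 4, with Xist at 752.4 to 1598 CPM, also had Kdm5d at 44.2, 34 and 41.1 CPM. Healthy stromal 1 and 3 carried both as well (Kdm5d at 17.8 and 14.6 CPM). Xist alone thus did not give the sex of a library, and how far sex was aligned with tumor was unclear.

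**Figure D1:**
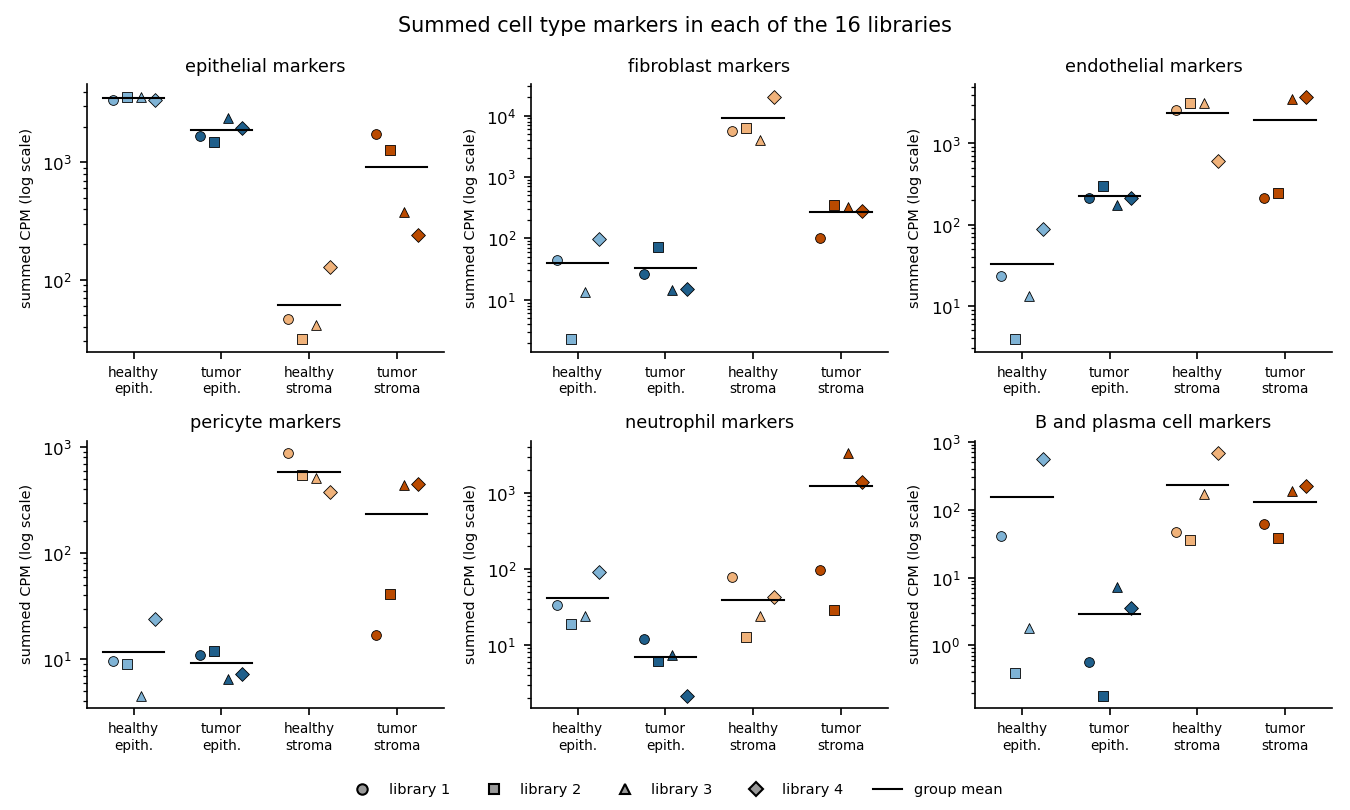
Summed CPM of marker lists on a log axis, in the 4 groups, with 1 symbol per library (circle, square, triangle and diamond for libraries 1 to 4) and a line at the group mean. The epithelial sums of the doubted pair, the libraries labelled tumor stromal 1 and 2, are 1758 and 1263 CPM. The first lies within the range of tumor epithelium (1501 to 2367 CPM) and the second below it. The fibroblast sum of every tumor stromal library (at most 352.5 CPM) lies below every healthy stromal library (at least 4028 CPM).

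The interaction was called for 1423 genes with a positive sign (6.81% of the genes tested) and for 1515 with a negative sign (7.25%), by edgeR's quasi-likelihood test with Benjamini-Hochberg adjusted p under 0.05 and an absolute log2 difference above 1.5. In the epithelial comparison 1541 genes (7.37%) were higher and 1217 (5.82%) lower in tumor, and in the stromal comparison 1283 (6.14%) were higher and 1048 (5.01%) lower. Across genes the changes of the 2 cell types were nearly unrelated (Pearson r = 0.079, a description over 20901 genes that share libraries). Both cell types were called in the same direction for 316 genes higher in tumor (1.51%) and 140 lower (0.67%). They were called in opposite directions for 136 genes higher in epithelium and lower in stroma (0.651%) and 132 genes lower in epithelium and higher in stroma (0.632%). All 268 opposite genes also had an interaction call, which nearly follows from their definition, since the interaction is the difference of those 2 changes. Among the interaction calls, 1203 had only the epithelial change called, 856 only the stromal change, 307 both and 572 neither, and 39 of the 307 changed in the same direction by unequal amounts. On log2(RPKM + 1) with limma, the split of interaction calls was 912 positive and 215 negative.

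Most interaction calls were genes whose gap between epithelium and stroma was smaller in tumor than in healthy colon, 2764 genes or 94.1% of the calls, and 174 (5.92%) had a larger gap. In healthy colon 6662 genes (31.9%) were called between epithelium and stroma, against 679 (3.25%) in tumor. This is a description, since the same libraries enter both gaps and the interaction. Without the doubted pair, 3504 of 23068 genes (15.2%) were called between tumor epithelium and tumor stroma, and the gap was smaller in 1930 interaction calls (75.7%) and larger in 618 (24.3%). The positive calls were then 1252, of which 1014 were among the first 1423 (71.3%), and the negative calls 1296, of which 950 were among the first 1515 (62.7%). The classes that need a stromal call shrank more: 148 and 89 genes in the same direction and 64 and 114 in opposite directions. Of the original 316, 140, 136 and 132 genes, 41.8%, 57.1%, 35.3% and 54.5% were still in their class. At least 1 group had no library above 3 counts in 491 of the 1423 positive and 118 of the 1515 negative calls. The same held for 109, 17, 52 and 20 of the 316, 140, 136 and 132 genes. Fitted fold changes of such genes depend on the prior count.

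**Figure D2:**
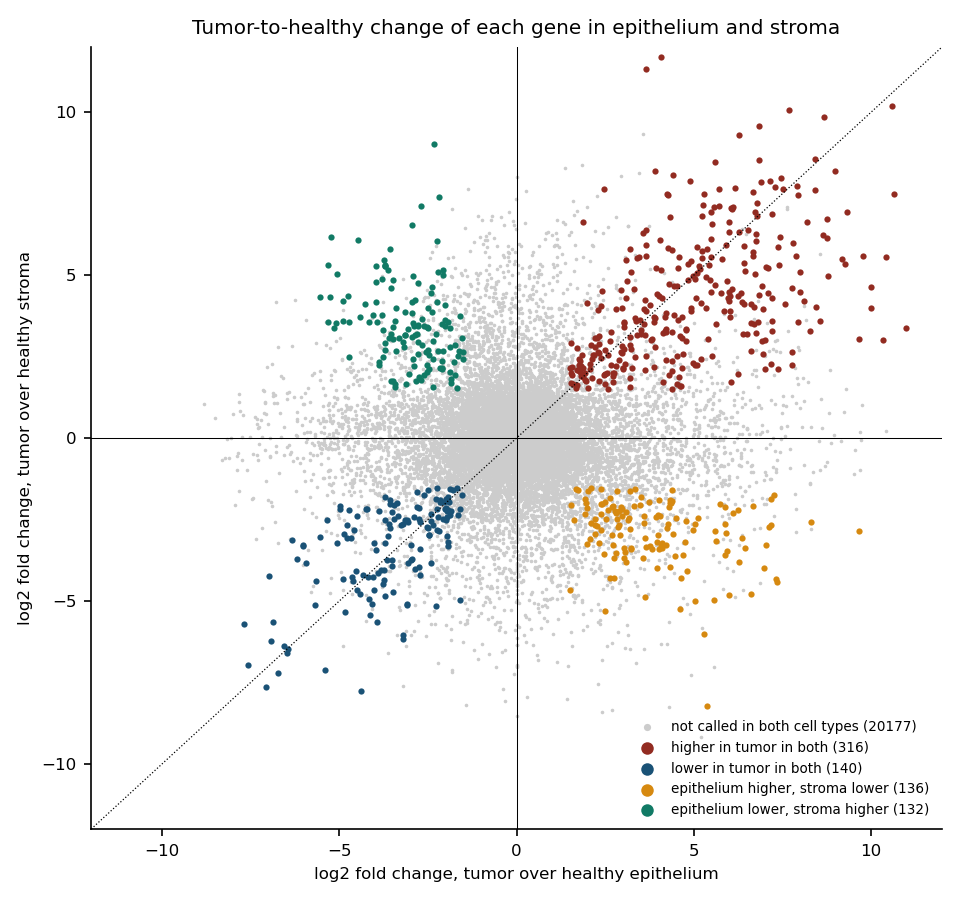
Log2 fold change of tumor over healthy epithelium (x axis) against log2 fold change of tumor over healthy stroma (y axis), 1 point per gene tested, coloured by class. The 316 and 140 genes called in the same direction lie in the upper right and lower left, the 136 and 132 opposite genes in the lower right and upper left, and the 20177 others in grey.

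Among the strongest positive interactions were secreted and cell-surface genes of healthy stroma that appeared in tumor epithelium. Scube1, which encodes a secreted and membrane-bound glycoprotein with EGF-like domains (chr15:83604999-83725021, mm10), was at 29.3, 22.6, 17.9 and 17.8 CPM in tumor epithelium and at 0.497, 0.0435, 0 and 0.156 CPM in healthy epithelium. In stroma it was at 20.2, 24.3, 12.6 and 10.7 CPM in tumor and 103.9, 173.4, 122.9 and 52.7 CPM in healthy libraries. Tumor and healthy libraries did not overlap in either cell type, and the 4 tumor stromal libraries lay together. Scube1 rose in epithelium by 7.12 ± 0.71 (log2, SE) and fell in stroma (log2 -2.74 ± 0.52), an interaction of 9.85 ± 0.89 (edgeR adjusted p = 1.95e-05), and of 10.43 without the doubted pair. It was called in 12 of 12 alternatives that gave a value.

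Tgfb2, a ligand of the TGF-beta receptors, was at 46.2, 51.9, 23.6 and 35.9 CPM in tumor epithelium and at most 0.663 CPM in healthy epithelium. Its levels in tumor stroma (35.9, 42.3, 17.6 and 13.2 CPM) and healthy stroma (64.5, 65.5, 41.7 and 89.7 CPM) overlapped narrowly, with the highest tumor library just above the lowest healthy one. The epithelial rise was 7.19 ± 0.65 and the stromal difference -1.26 ± 0.47 (edgeR adjusted p = 0.0927), which passed the test without the doubted pair (log2 -2.09, edgeR adjusted p = 0.0374). Pcdh7, a protocadherin, had the same shape, with 34.8 to 98.7 CPM in tumor epithelium, 0.0639 to 1.08 CPM in healthy epithelium, an interaction of 8.36 ± 0.82 and a stromal difference that was not called (log2 -1.05 ± 0.49). Podn, a proteoglycan of the extracellular matrix, ranged from 22.96 to 88.2 CPM in tumor epithelium and 0.087 to 1.87 CPM in healthy epithelium, with an interaction of 8.28 ± 1.34.

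Gfpt2 and Igsf10 changed more in stroma than in epithelium. Gfpt2, which encodes the entry enzyme of the hexosamine pathway, was at 96.8, 128.4, 28.01 and 1354 CPM in healthy stroma and at 11.2 to 23.2 CPM in tumor stroma, a fall of log2 -4.53 ± 1.2 that was not called without the doubted pair (log2 -5.03, edgeR adjusted p = 0.107). Healthy stromal 4 was far above the other healthy stromal libraries. In epithelium Gfpt2 was at 9.85 to 16.6 CPM in tumor against 4.47 CPM in healthy epithelial 1 and at most 0.639 CPM in the other healthy libraries (log2 3.4 ± 1.19, edgeR adjusted p = 0.0625). Igsf10, an immunoglobulin superfamily gene, stood at 216.2 to 897.4 CPM in healthy stroma and 1.53 to 12.8 CPM in tumor stroma, with an interaction of 7.77 ± 1.16. Its epithelial levels overlapped (0.725 to 3.25 CPM in tumor, 0.0435 to 1.25 CPM in healthy). Igsf10 and Podn overlap other annotated genes, Med12l on the other strand and Scp2 on the same strand, and reads in the shared stretches cannot be told apart.

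Negative interactions were led by genes of the mature colon surface that were lower in tumor epithelium and at or near 0 in healthy stroma. Slc6a14, an amino acid transporter encoded on the X chromosome, was at 8.55, 5.2, 17.2 and 8.14 CPM in tumor epithelium against 129.2, 94.3, 159.2 and 80.8 CPM in healthy epithelium, and at 6.36, 3.41, 2.07 and 1.9 CPM in tumor stroma against at most 0.177 CPM in healthy stroma. The groups did not overlap in either cell type, and the stromal levels were highest in the doubted pair. Slc6a14 fell in epithelium (log2 -3.57 ± 0.56) and rose in stroma (5.8 ± 0.71), an interaction of -9.37 ± 0.91 (edgeR adjusted p = 2.71e-05), and of -8.56 without the doubted pair. Tumor stromal 3 and 4 were also above every healthy stromal library.

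Lypd8, a surface protein of colonocytes that keeps flagellated bacteria off the epithelium, was at 135.3, 102.5, 454.4 and 272.0 CPM in tumor epithelium and 2722, 10304, 10167 and 5551 CPM in healthy epithelium. It was at 159.7, 108.0, 226.8 and 267.6 CPM in tumor stroma, where tumor stromal 3 and 4 were the highest, and at 0.175, 0.341, 0.663 and 39.8 CPM in healthy stroma. The interaction was -9.12 ± 1.9 (edgeR adjusted p = 0.00457). The stromal rise of 4.22 ± 1.32 (edgeR adjusted p = 0.0439) was not called without the doubted pair (log2 4.57, edgeR adjusted p = 0.0892). Hao2, a peroxisomal hydroxyacid oxidase, and Cyp2c55, a cytochrome P450 of the colon, fell in epithelium by log2 -7.03 ± 1.13 and -8.5 ± 1.55, while their stromal differences were 2.18 ± 1.21 and 0.63 ± 1.23 and neither was called. Sprr2a1 and Sprr2a3, small proline-rich proteins of stressed epithelia, had interactions of -9.01 ± 1.46 and -9.01 ± 1.47. They are near-identical copies in a cluster of 5 called Sprr2 genes (chr3:92215799-92433925), and how the counting divided shared reads was not stated, so their values are uncertain as separate genes.

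The 136 genes that rose in epithelium and fell in stroma included fibroblast genes. Pdgfra, the PDGF receptor that defines colon fibroblasts, was at 16.4, 55, 7.9 and 10.8 CPM in tumor epithelium and 3.48, 1.22, 1.53 and 1.4 CPM in healthy epithelium, against 6.57, 13.8, 54.1 and 22.7 CPM in tumor stroma and 249.5, 243.7, 186.9 and 559.1 CPM in healthy stroma. The groups separated in both cell types, and tumor epithelium was at the level of tumor stroma. The epithelial rise was 3.56 ± 0.74 and the stromal fall log2 -3.67 ± 0.72, and both passed without the doubted pair (edgeR adjusted p = 0.00178 and 0.0425). Fibroblast markers as a list moved differently in epithelium, summing to 14.2 to 73.7 CPM in tumor and 2.26 to 99.3 CPM in healthy libraries, and their part in the Pdgfra value was not tested.

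Fbln1, a matrix glycoprotein of the fibulin family, was at 67.7, 45.4, 42.5 and 41.5 CPM in tumor epithelium and 5.8, 0.826, 2.62 and 2.96 CPM in healthy epithelium. In stroma it was at 47.95, 45.98, 18.2 and 3.85 CPM in tumor and 223.2, 279.8, 232.2 and 501.6 CPM in healthy libraries. Tumor and healthy libraries separated in each cell type, and Fbln1 was lower in tumor stromal 3 and 4 than in the doubted pair. It rose by 4.03 ± 0.69 in epithelium and changed by log2 -3.41 ± 0.66 in stroma (-4.81 without the doubted pair, edgeR adjusted p = 0.00383). Cygb, a globin of fibroblasts, Gria3, a glutamate receptor subunit encoded on the X chromosome, and Plxdc2, a membrane protein with a plexin-like domain, rose by 4.8 ± 0.97, 3.96 ± 0.97 and 3.64 ± 0.92 in epithelium and fell by log2 -4.07 ± 0.75, -3.98 ± 0.84 and -3.35 ± 0.84 in stroma. Without the doubted pair the stromal falls of Gria3 and Plxdc2 were not called (edgeR adjusted p = 0.0574 and 0.0998). Over the 136 genes the median gap of epithelium over stroma was log2 -6.87 in healthy colon and -0.26 in tumor, and the doubted pair and tumor stromal 3 and 4 stood at a median of 103% and 124% of the tumor epithelial level.

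The 132 genes that fell in epithelium and rose in stroma included surface and defence genes of the colonocyte. Sult1b1, a sulfotransferase, was at 1.91, 0.121, 5.32 and 1.72 CPM in tumor epithelium and 91.6 to 133.1 CPM in healthy epithelium, and at 1.37, 0.892, 0.782 and 2.62 CPM in tumor stroma and 0, 0, 0 and 0.284 CPM in healthy stroma. Tumor and healthy libraries separated in each cell type, with the stromal levels far below those of healthy epithelium. The changes were log2 -5.53 ± 0.95 and 4.32 ± 1.06, and the stromal one passed without the doubted pair (4.58, edgeR adjusted p = 0.0353). Krt20, the keratin of differentiated colonocytes, was at 7.53, 9.85, 26.4 and 12 CPM in tumor epithelium, 90.9 to 270.6 CPM in healthy epithelium, 11.3, 6.46, 12.6 and 11.1 CPM in tumor stroma and 0.0218, 0, 0 and 3.01 CPM in healthy stroma. Tumor stroma was thus close to tumor epithelium in all 4 libraries, and without the doubted pair the stromal difference was 3.97 with an edgeR adjusted p of 0.0826. Tlr1, a receptor for bacterial lipopeptides, changed by log2 -4.29 ± 1.01 and 4.12 ± 1.02, and was highest among stromal libraries in tumor stromal 3 and 4 (7.13 and 16.9 CPM). These libraries also held neutrophil markers and lay above tumor epithelium in Tlr1 (at most 3.21 CPM). The part of neutrophil RNA in the Tlr1 values was not tested. Trim31, a ubiquitin ligase of intestinal epithelium, changed by log2 -3.95 ± 0.97 and 4.17 ± 1.08, the latter not called without the doubted pair (edgeR adjusted p = 0.109). The class also held runs of neighbouring genes, namely 4 Akr1c genes on chromosome 13, 4 Naip genes on chromosome 13 and 4 Btnl genes on chromosome 17, which share sequence with each other. Over the 132 genes the doubted pair stood at a median of 78.9% of the tumor epithelial level and tumor stromal 3 and 4 at 47.2%.

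**Figure D3:**
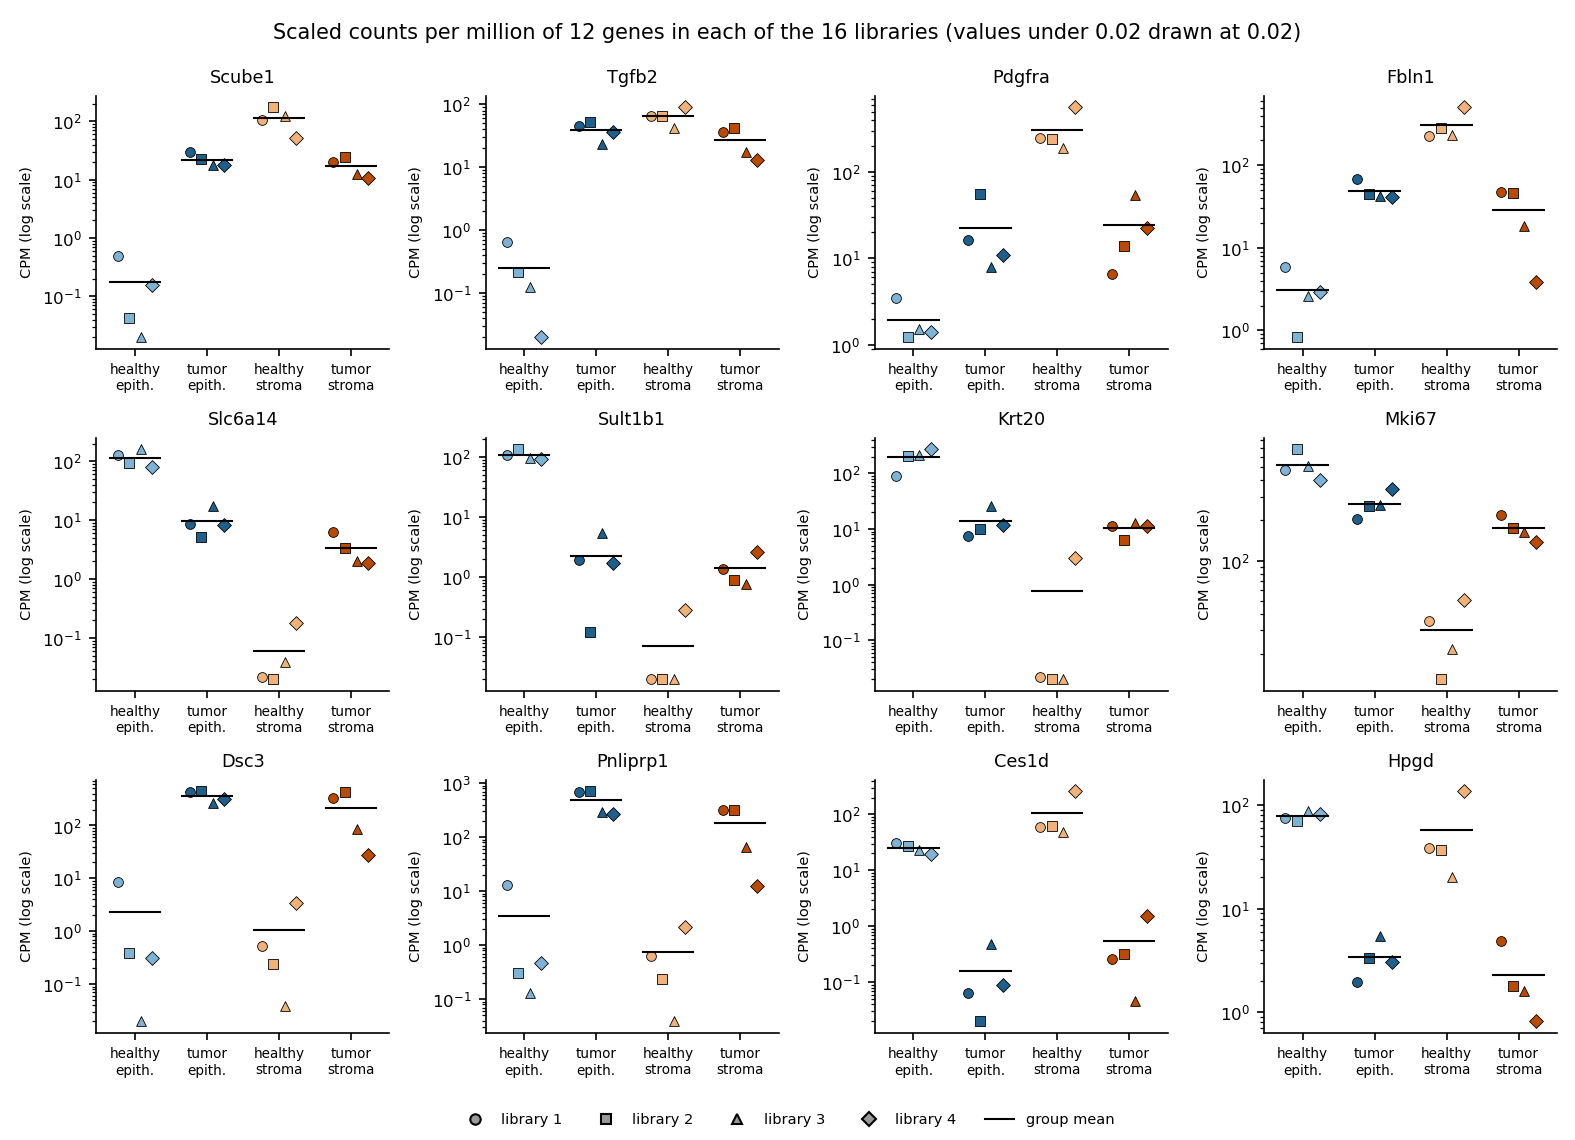
CPM of 12 named genes on a log axis in the 4 groups, 1 symbol per library (circle, square, triangle and diamond for libraries 1 to 4) with a line at the group mean, and values under 0.02 CPM drawn at 0.02. Scube1, Tgfb2, Pdgfra and Fbln1 are higher in tumor than in healthy epithelium but higher in healthy stroma on average, Slc6a14, Sult1b1 and Krt20 show the reverse, and Dsc3 and Pnliprp1 are higher, and Ces1d and Hpgd lower, in tumor of both cell types.

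The 316 genes higher in tumor of both cell types were led by genes with almost no reads in healthy colon. Dsc3, a desmosomal cadherin, was at 422, 440.7, 264.3 and 317.8 CPM in tumor epithelium and 8.45, 0.391, 0 and 0.311 CPM in healthy epithelium. In stroma it was at 333.9, 424.5, 86.7 and 27.6 CPM in tumor and at most 3.37 CPM in healthy libraries. Tumor and healthy libraries separated widely in both cell types, while tumor stromal 3 and 4 were well below the doubted pair. The changes were 7.3 ± 1.54 and 7.71 ± 1.57, with an interaction of -0.41 ± 1.69 (95% interval -4.00 to 3.18, edgeR adjusted p = 0.91). Without the doubted pair the stromal rise was 5.76 (edgeR adjusted p = 0.028).

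Pnliprp1 and Pnliprp2, relatives of pancreatic lipase, rose in epithelium by 7.14 ± 1.55 and 6.84 ± 1.46 and in stroma by 7.88 ± 1.6 and 8.55 ± 1.59. Gulo, the last enzyme of vitamin C synthesis, rose by 7.21 ± 1.17 and 6.87 ± 1.13. These genes kept a stromal call without the doubted pair (edgeR adjusted p = 0.0318, 0.0192 and 0.00854). Cfi, the complement factor I protease, rose by 6.9 ± 1.58 and 7.84 ± 1.66, but its stromal level was 92.7, 28.1, 2.67 and 1.23 CPM in tumor and its stromal call was lost without the doubted pair (log2 3.85, edgeR adjusted p = 0.0906). The same gradient held across the class. Of the 316 genes, 291 were higher in the doubted pair than in tumor stromal 3 and 4, with medians of 98% and 26.9% of the tumor epithelial level, and the epithelial markers stood at medians of 77.1% and 16.4%. How much of the stromal rise was RNA of tumor epithelium was not tested. Several members were neighbours, which share a place and in part reads: runs of 5 genes around Axin2 and around Notum on chromosome 11, 4 secretory phospholipase A2 genes on chromosome 4 (Pla2g2f, Pla2g2d, Pla2g5 and Pla2g2a), and a run of 4 with Hamp and Hamp2, the hepcidin genes, on chromosome 7. Reads of Notum and its antisense partner Notumos cannot be told apart, as strand use was not stated.

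The 140 genes lower in tumor of both cell types had no such gradient, with 59 of 140 higher in the doubted pair than in tumor stromal 3 and 4, and with the doubted pair at a median of 110% and tumor stromal 3 and 4 at 140% of the tumor epithelial level. Ces1d, a carboxylesterase that hydrolyses esters and lipids, was at 0.0638, 0, 0.471 and 0.0892 CPM in tumor epithelium and 30.9, 27.4, 22.7 and 19.6 CPM in healthy epithelium. It was at 0.255, 0.315, 0.046 and 1.54 CPM in tumor stroma and 58.6, 63.1, 47.99 and 257.8 CPM in healthy stroma. Levels were low in all 8 tumor libraries and high in all 8 healthy ones. The falls were log2 -7.07 ± 1.01 and -7.63 ± 1.01, and the stromal fall was log2 -7.1 without the doubted pair (edgeR adjusted p = 0.00679). All 8 called members of the Ces1 cluster, Ces1a to Ces1h, lie together at chr8:93020214-93379725, and these related genes may share reads.

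Hpgd, the enzyme that breaks down prostaglandins, was at 1.98, 3.32, 5.38 and 3.06 CPM in tumor epithelium and 75.3, 70.4, 86.8 and 82.3 CPM in healthy epithelium, and at 4.89, 1.78, 1.61 and 0.821 CPM in tumor stroma and 38.2, 36.7, 20.1 and 134.6 CPM in healthy stroma. The groups did not overlap in either cell type. Its falls were nearly equal, log2 -4.51 ± 0.63 and -4.65 ± 0.64, with an interaction of 0.15 ± 0.78 (95% interval -1.51 to 1.80, edgeR adjusted p = 0.933). Dpep1, a membrane dipeptidase, and Ces1g fell by log2 -7.58 ± 1.13 and -6.92 ± 0.85 in epithelium and by log2 -6.96 ± 1.09 and -6.24 ± 0.86 in stroma. Dpt, a fibroblast matrix protein, fell by log2 -5.4 ± 1.48 in epithelium, where healthy epithelial 4 (14.3 CPM) and 1 (2.82 CPM) carried most of its reads and the groups overlapped, and by log2 -7.12 ± 1.39 in stroma. The class also held a run of 4 neighbours on chromosome 3 with the glutathione transferases Gstm1, Gstm2 and Gstm3.

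Of 24 listed Wnt target genes, which Apc loss switches on, 10 rose in both cell types, beside 316 of all 20901 genes. In epithelium 14 rose, in stroma 14 rose and 1 fell, and 5 had a positive and 3 a negative interaction. With the doubted pair left out 9 rose in stroma, and 5 had a positive and 1 a negative interaction. The median log2 change was 2.45 in epithelium and 3.04 in stroma, against 0.05 and 0.09 over all genes. Without the doubted pair the stromal median was 1.45, and the median interaction went from 0.093 to 1.77. Axin2, a feedback inhibitor and the usual readout of the pathway, was at 237.4, 234.8, 167.1 and 165.7 CPM in tumor epithelium, 26.6 to 38.3 CPM in healthy epithelium, 207.6, 188.7, 60.05 and 19.2 CPM in tumor stroma and 7.05 to 34.3 CPM in healthy stroma. Both tumor groups stood above healthy epithelium except for tumor stromal 4, which lay within the healthy stromal range. Axin2 rose by 2.63 ± 0.63 and 2.99 ± 0.64, and its stromal rise was not called without the doubted pair (log2 1.4, edgeR adjusted p = 0.162).

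Wif1, a secreted Wnt inhibitor, was at 129.3, 81.9, 119.9 and 118.8 CPM in tumor epithelium and 116.6, 161.2, 41.8 and 4.21 CPM in tumor stroma, against at most 3.15 CPM in any healthy library. It rose by 6.79 ± 1.08 and 7.22 ± 1.09, and by 5.4 in stroma without the doubted pair (edgeR adjusted p = 0.0045). Lef1, a transcription factor of the pathway, differed in pattern, since tumor stromal 3 and 4 (13.2 and 24.8 CPM) were close to the doubted pair (25.8 and 23.3 CPM) and all were above healthy stroma (0.443 to 1.91 CPM). Its interaction of 1.79 (edgeR adjusted p = 0.0468) was not called without the doubted pair (edgeR adjusted p = 0.075). Notum, Sp5 and Prox1 likewise kept their stromal rise without the doubted pair (log2 4.39, 4.77 and 3.03). Sp5, a zinc-finger factor of the Sp family, rose by 5.92 in both cell types (SE 0.82 and 0.79), from at most 0.261 CPM in healthy libraries to 4.47 to 9.15 CPM in tumor epithelium and 10.6, 9.13, 4.23 and 1.54 CPM in tumor stroma.

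The sequence of the 250 bases before the Sp5 start is shown for 2 reasons. Sp5 rose by the same fitted amount in both cell types over all 16 libraries, though by less in stroma without the doubted pair. Its promoter also carried the most matches among the listed targets to the letters bound by the Wnt effectors of the TCF and LEF family. The letters searched were CTTTGAT and CTTTGTT on both strands, which cannot overlap on the same strand, and the matches are in capitals (a match to the opposite strand reads ATCAAAG or AACAAAG). The stretch is chr2:70474673-70474922 (GRCm38.p6, + strand), upstream of the gene and in no other annotated gene, with the sequence from RefSeq.
Sp5: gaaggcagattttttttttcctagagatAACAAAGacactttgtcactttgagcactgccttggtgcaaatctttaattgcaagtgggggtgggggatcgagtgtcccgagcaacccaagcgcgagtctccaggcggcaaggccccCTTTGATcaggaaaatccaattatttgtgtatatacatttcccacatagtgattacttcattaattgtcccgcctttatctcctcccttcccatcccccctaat
Of the 24 targets 15 had a promoter in the RefSeq table, and 2 of these had a match, Sp5 with 2 and Tnfrsf19 with 1. Matches occurred in 2490 of 27025 genes with a promoter (9.21%). They occurred in 32 of 220 genes called higher in both cell types (14.5%), 5 of 97 called lower in both (5.15%), 11 of 98 higher in epithelium and lower in stroma (11.2%) and 4 of 97 of the reverse kind (4.12%). A match is a description of letters and not a bound site.

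Other Wnt targets differed between the cell types. Dkk2, a secreted Wnt modulator, was at 18.1, 26.4, 75.3 and 39.7 CPM in tumor epithelium and at most 3 counts in each healthy epithelial library, at least 85.4-fold higher, while in stroma it was at 10.9 to 50.9 CPM in tumor and 6.47 to 13.8 CPM in healthy libraries. Dkk3 rose by 5.96 ± 1.11 in epithelium and differed by -0.79 ± 0.89 in stroma, an interaction of 6.75 ± 1.39 (edgeR adjusted p = 0.00435). The stem cell genes Lgr5 and Ascl2 went the other way. Lgr5, the R-spondin receptor of crypt stem cells, was at 85.1 to 112.0 CPM in tumor epithelium and 18.2 to 74.8 CPM in healthy epithelium (log2 1.03 ± 0.66, edgeR adjusted p = 0.318), and at 82.1, 90.3, 11.5 and 13.5 CPM in tumor stroma against 0.545 to 3.62 CPM in healthy stroma. Its interaction of -3.93 ± 0.97 was not called without the doubted pair (-1.93, edgeR adjusted p = 0.125). Ascl2, a transcription factor of the same cells, had an interaction of -6.77 ± 1.25, and of -4.41 without them (edgeR adjusted p = 0.0119).

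Apc, the targeted gene (chr18:34220924-34322552, mm10), was not lower in tumor epithelium, with 344.7, 378.0, 229.8 and 297.1 CPM against 239.9, 125.1, 106.3 and 82.5 CPM in healthy epithelium. The groups overlapped narrowly, and the difference of 1.17 ± 0.35 (edgeR adjusted p = 0.0307) lay under the fold threshold. Counts over the whole gene do not resolve the floxed part, so these values check neither recombination nor the labels. In stroma Apc was at 144.0 to 223.5 CPM in tumor and 88.8 to 227.5 CPM in healthy libraries, and the interaction was 0.7 ± 0.49 (edgeR adjusted p = 0.381). Of the 7 genes of the destruction complex, 0 were called in either cell type by edgeR, limma-voom or DESeq2, and 3 had an unadjusted edgeR p under 0.05 in each cell type. Btrc, its ubiquitin ligase subunit, had an interaction of 1.56 ± 0.39 (edgeR adjusted p = 0.0138), which was not called without the doubted pair (edgeR adjusted p = 0.0649). Ctnnb1, which encodes beta-catenin, differed by 0.81 ± 0.24 in epithelium and 0.86 ± 0.24 in stroma, both under the fold threshold.

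Genes of mature colon epithelium had negative interactions. Of 22 mature colonocyte genes, 18 fell in epithelium (median log2 -4.93), while 4 rose and 2 fell in stroma (median 0.64), or 2 and 1 without the doubted pair, and 17 had a negative interaction, 15 without the doubted pair. Car1, a carbonic anhydrase of the colon surface, was at 4.21, 5.98, 42.7 and 17.1 CPM in tumor epithelium and 2062 to 3559 CPM in healthy epithelium, and at 2.05 to 16.5 CPM in tumor stroma and 0.175 to 19.8 CPM in healthy stroma. Sult1a1, a sulfotransferase, fell by log2 -6.04 ± 0.64 in epithelium with -0.6 ± 0.52 in stroma. Muc3, a membrane mucin, fell by log2 -4.74 ± 0.91 in epithelium and rose by 3.56 ± 0.88 in stroma, and its stromal rise passed without the doubted pair (3.73, edgeR adjusted p = 0.0336). Slc9a3, an intestinal sodium-proton exchanger, had a negative interaction without an epithelial fall, with a difference of 1.43 in epithelium and a rise of 4.58 in stroma, and the interaction was not called without the doubted pair (edgeR adjusted p = 0.397). Tmigd1, a cell adhesion protein of intestinal epithelium, fell in both cell types, in stroma only with the doubted pair (edgeR adjusted p = 0.166 without it).

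Of 12 goblet cell genes, 7 fell in epithelium, 2 rose in stroma and 5 had a negative interaction, 2 without the doubted pair. Zg16, a lectin of the mucus layer, was at 0.242 to 1.69 CPM in tumor and 53.4 to 104.8 CPM in healthy epithelium, with an interaction of -7.45 ± 1.45 (edgeR adjusted p = 0.00294). Retnlb, a goblet cell antimicrobial protein, fell by log2 -4.15 ± 1.01 and rose by 3.55 ± 1.00 in stroma. Muc2, the main mucin of colon mucus, was at 263.3 to 760.9 CPM in tumor epithelium and 4202 to 22462 CPM in healthy epithelium, yet with a log2 difference of -4.75 ± 1.6 its adjusted p was 0.054 by edgeR. Of 9 enteroendocrine genes tested, 4 fell in epithelium and 1 in stroma, and 2 had a negative interaction, Tph1 and Sct. The stromal fall, which was that of Gcg, and the interaction call of Sct were lost without the doubted pair (edgeR adjusted p = 0.0977 for Sct). Antimicrobial genes split. Of 10, 2 rose and 3 fell in epithelium, 3 rose in stroma and 4 had a negative interaction (1 without the doubted pair), among them Pigr, the receptor that carries IgA across the epithelium (log2 -4.005 ± 1.293 in epithelium), whose interaction was among those lost (edgeR adjusted p = 0.101 without the doubted pair). Lcn2, an iron-sequestering neutrophil and epithelial protein, rose by 4.97 in both cell types (SE 1.04 and 1.03), with 99.1 to 236 CPM in tumor epithelium and 185.3, 128.6, 356.2 and 168.6 CPM in tumor stroma. Tumor stromal 3, the library highest in neutrophil markers, was also highest in Lcn2, and their relation was not tested.

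MHC class II genes, which present antigen, fell in epithelium for 6 of 7 members (median log2 -3.11) by edgeR, against 1 of 7 by limma-voom and 7 of 7 by DESeq2. In stroma 0 of 7 were called by any of these tools, also at an unadjusted edgeR p under 0.05, and 3 had a negative interaction by edgeR with or without the doubted pair, against 0 by limma-voom and 6 by DESeq2. Cd74, the invariant chain, was at 14.7, 7.13, 32 and 45.6 CPM in tumor epithelium and 12.8, 312.8, 72.4 and 274.3 CPM in healthy epithelium. The groups overlapped, and healthy epithelial 1 lay within the tumor range. Its interaction was -3.67 ± 1.14 (edgeR adjusted p = 0.0405). B and plasma cell markers, whose cells also express class II genes, summed to 40.4, 0.391, 1.79 and 562.9 CPM in the healthy epithelial libraries and 0.181 to 7.21 CPM in tumor epithelium, and their part was not tested. With healthy epithelial 4 left out as well, 1 of 7 interactions was called.

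Of 21 cell cycle genes, 0 were called in epithelium by edgeR, limma-voom or DESeq2 (4 at an unadjusted edgeR p under 0.05, median log2 -0.6), 7 rose in stroma (median 1.62) and 8 had a negative interaction. Without the doubted pair 5 rose in stroma and 6 had a negative interaction. Mki67, the Ki-67 antigen of dividing cells, was at 203.7, 257.7, 262.1 and 344 CPM in tumor epithelium and 478, 679.8, 510.6 and 402 CPM in healthy epithelium. In stroma it was at 218.9, 175.3, 164.6 and 137.7 CPM in tumor and 12.9 to 50.5 CPM in healthy libraries. Tumor and healthy libraries separated in each cell type. Tumor stromal 1 lay within the tumor epithelial range, and the other tumor stromal libraries lay below it. The epithelial difference was -0.96 ± 0.33 (edgeR adjusted p = 0.0599), the stromal rise 2.53 ± 0.35 and the interaction -3.48 ± 0.48 (edgeR adjusted p = 0.000297), or -3.26 without the doubted pair. Bub1, a spindle checkpoint kinase, and Ccna2, cyclin A2, had interactions of -4.44 ± 0.64 and -4.29 ± 0.67 and kept them (-3.75 and -3.96). Of 12 ribosome biogenesis genes, 0 were called in either cell type or in the interaction by these tools, with 4, 4 and 1 at an unadjusted edgeR p under 0.05.

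Of 24 collagen and matrix genes, 17 fell in stroma (median log2 -3.32), 4 rose and 1 fell in epithelium (median 0.79), and 10 had a positive interaction. Without the doubted pair the stromal falls passed for 3 genes at a similar median (-3.003), and 6 interactions were positive and 1 negative. Col1a1, the main fibrillar collagen chain, was at 19.8, 34.96, 61.4 and 57.7 CPM in tumor stroma and 861.9, 384.7, 562.4 and 2919 CPM in healthy stroma, and it was not called in epithelium (log2 0.15 ± 1.01). Its stromal fall was not called without the doubted pair (log2 -4.32, edgeR adjusted p = 0.115). These falls moved with the fibroblast marker sum, of which Col1a1 is a member, and fewer fibroblasts and less collagen RNA per fibroblast cannot be told apart. Col12a1, a collagen of the fibril surface, was at 47.3, 60.5, 29.1 and 27.1 CPM in tumor epithelium and 0.174 to 1.4 CPM in healthy epithelium, and had an interaction of 7.76 ± 0.74 (edgeR adjusted p = 2.59e-05). Fn1, fibronectin, rose from 53.02, 5.22, 8.81 and 65.5 CPM in healthy epithelium to 364.6, 389.7, 673.9 and 575.2 CPM in tumor epithelium (3.92 ± 0.78) and differed by -2.11 ± 0.72 in stroma (edgeR adjusted p = 0.0654). Thbs2, a matricellular thrombospondin, rose in epithelium by 3.18 ± 0.75 and fell in stroma (log2 -2.44 ± 0.71), the latter not called without the doubted pair (edgeR adjusted p = 0.0973).

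Signals that fibroblasts send to the crypt formed a further list. Of 21 tested stromal Wnt, R-spondin and BMP-pathway genes, 14 fell and 1 rose in stroma (median log2 -3.77), 7 rose and 2 fell in epithelium, and 9 had a positive interaction. When the doubted pair was left out 6 fell and 2 rose in stroma, and 9 interactions were positive and 1 negative. The fitted median in epithelium was 2.34, but with the 9 genes that had a group at no more than 3 counts set to their bound it was 0.295, and the interaction median went from 4.3 to 3.6. Bmp4, a ligand that restrains crypt cells, was at 71.7 to 164.9 CPM in healthy stroma and 6.31, 13.8, 16.1 and 13.8 CPM in tumor stroma (log2 -3.21 ± 0.38), and at 3.63 to 5.87 CPM in tumor epithelium, at least 9.91-fold higher than healthy epithelium. Wnt2b, a ligand of the stem cell niche, fell in stroma from 43.97 to 128 CPM in healthy to 0.525 to 3.28 CPM in tumor libraries (log2 -5.27 ± 0.72) and did not pass the test in epithelium (log2 -0.15 ± 0.64). Wnt2 was at 0 in all 4 tumor stromal libraries and at 0.677 to 3.94 CPM in healthy stroma, at least 10.6-fold higher. Inhba, a subunit of activin, was the 1 gene of the list that rose in stroma (1.51 ± 0.48), and it rose more in epithelium (4.38 ± 0.58, interaction 2.87 ± 0.73), though the interaction was not called without the doubted pair (edgeR adjusted p = 0.0584). Sfrp1, a secreted Wnt inhibitor, fell in both (log2 -3.72 ± 1.05 and -4.84 ± 0.95).

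Of 11 matrix metalloproteinases and inhibitors, 5 rose in epithelium, 1 rose and 3 fell in stroma (2 and 1 without the doubted pair), and 6 had a positive interaction with or without the doubted pair. Mmp14, the membrane-bound metalloproteinase, was at 51.8 to 81.9 CPM in tumor epithelium and 8.43 to 20.8 CPM in healthy epithelium (2.13 ± 0.4) and differed by -0.73 ± 0.39 in stroma. Timp2, an inhibitor of these enzymes, was at 38.1 to 55.9 CPM in tumor stroma and 249.7 to 1634 CPM in healthy stroma (log2 -3.76 ± 0.64). Mmp7, an epithelial metalloproteinase and Wnt target, rose in both cell types by 5.28 ± 1.32 and 7.5 ± 1.48. Of 20 cytokine and chemokine genes tested, 6 rose in epithelium and 3 rose and 3 fell in stroma, and 5 had a positive and 1 a negative interaction. With tumor stromal 3 and 4 alone 2 rose and 1 fell in stroma. Cxcl1, a ligand that attracts neutrophils, was at 35.9, 43.7, 107 and 61.5 CPM in tumor epithelium and 2.48 to 7.79 CPM in healthy epithelium. In stroma it was at 34.5 to 106.3 CPM in tumor and 47.6 to 649 CPM in healthy libraries, which overlapped. Its interaction was 5.46 ± 1.08 (edgeR adjusted p = 0.00334). Csf1, the macrophage growth factor, rose in epithelium (2.96 ± 0.72) and differed by -1.32 ± 0.66 in stroma. Il1b, an inflammatory cytokine, did the reverse, with 59.5, 22.8, 339.6 and 303.5 CPM in tumor stroma and 1.74 to 28.4 CPM in healthy stroma (4.19 ± 1.21), where tumor stromal 3 and 4, the libraries with neutrophil markers, were highest, and -0.53 ± 1.11 in epithelium (interaction -4.72 ± 1.61, edgeR adjusted p = 0.0607).

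Immediate early and heat shock genes had median changes of 0.71 in epithelium and -0.69 in stroma, with 4 positive interactions of 13 genes (2 without the doubted pair) and 1 call in each cell type. Egr1, an early-response transcription factor that also responds to tissue handling, was at 1195 to 1995 CPM in tumor stroma and 3222 to 9052 CPM in healthy stroma (log2 -1.66 ± 0.35), and its interaction was 2.55 ± 0.49 (edgeR adjusted p = 0.00273). Fatty acid oxidation genes fell in epithelium for 4 of 10, with 5 negative interactions (3 without the doubted pair). Cpt1a, the gate of mitochondrial fatty acid import, was at 36.9 to 54.1 CPM in tumor and 115 to 199 CPM in healthy epithelium (log2 -1.94 ± 0.26), against -0.38 ± 0.25 in stroma. Of 17 hypoxia and glycolysis genes, 1 rose in epithelium and 3 in stroma (1 without the doubted pair), and 1 positive and 4 negative interactions were called, of which the negative ones were lost without the doubted pair. Their median interaction of -0.35 turned to 0.31 on log2(RPKM + 1). Slc2a1, the glucose transporter GLUT1, was at 140.8, 106.7, 142.6 and 124.7 CPM in tumor and 76.96, 47.8, 51.5 and 55.4 CPM in healthy epithelium, and at 135.7, 138.4, 132.8 and 134 CPM in tumor and 37.98, 45.2, 44.5 and 62.8 CPM in healthy stroma. It was thus higher in every tumor library than in every healthy library of both cell types, by 1.15 ± 0.2 and 1.51 ± 0.2 (1.48 in stroma without the doubted pair, under the fold threshold, and interaction -0.35 ± 0.28, edgeR adjusted p = 0.448). Of 15 interferon-stimulated genes, 1 fell in epithelium and 4 fell in stroma, where all of these calls were lost without the doubted pair, and 0 had an interaction call by edgeR or limma-voom against 1 by DESeq2 (1 at an unadjusted edgeR p under 0.05). Of 13 mitochondrially encoded genes, 5 had a negative interaction, and all of these calls were lost without the doubted pair, whose mitochondrial share of counts was 55.4% and 62.9% against 27.4% and 24.8% in tumor stromal 3 and 4.

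**Figure D4:**
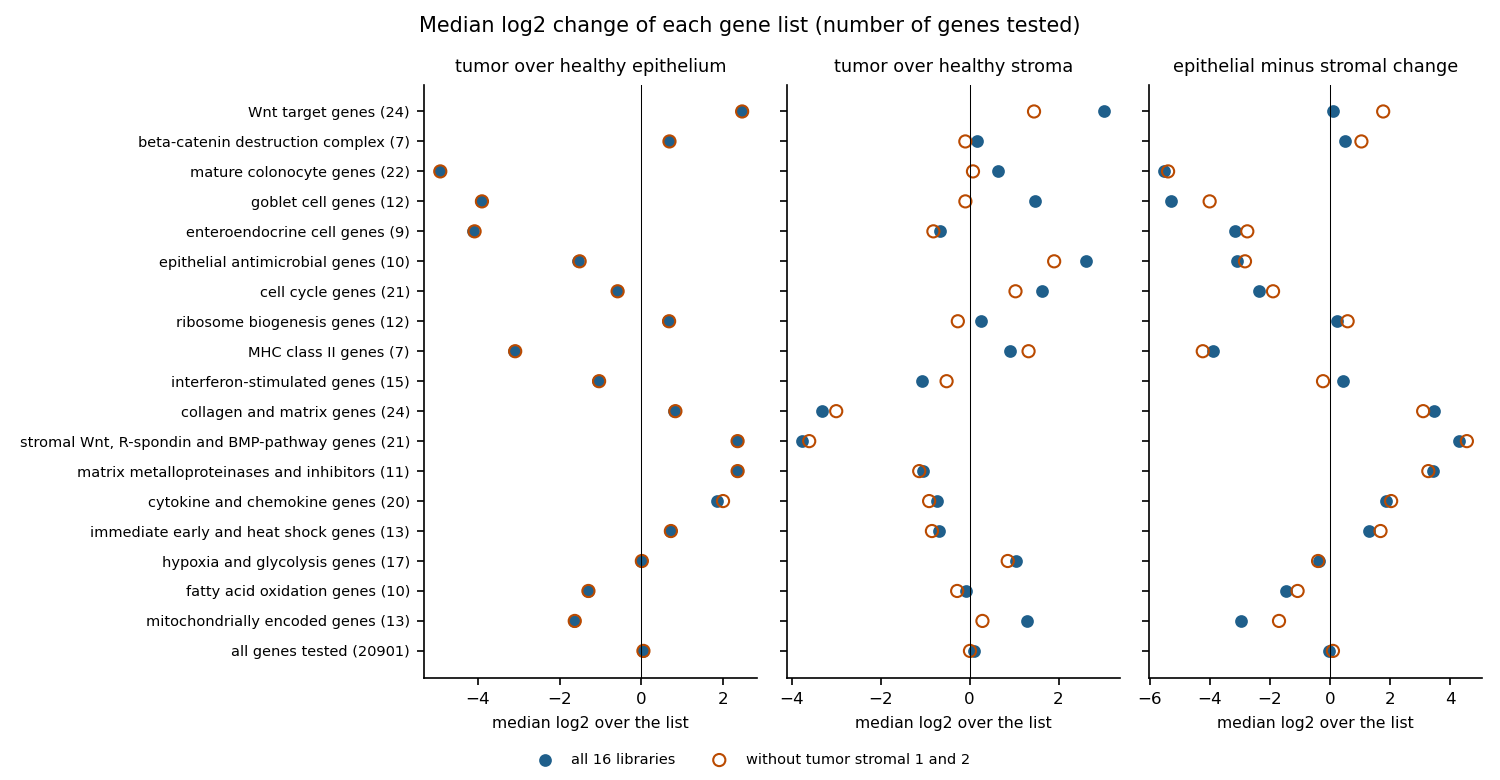
Median log2 value of each gene list (number tested in brackets) for the epithelial change, the stromal change and the interaction, with all 16 libraries (filled) and without the doubted pair, the libraries labelled tumor stromal 1 and 2 (open). Wnt targets lie to the right in both cell types (2.45 and 3.04, with 1.45 in stroma without the doubted pair). Mature colonocyte genes lie to the left in epithelium (-4.93, against 0.64 in stroma), and collagen and matrix genes to the left in stroma (-3.32).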

How the data were processed

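Total RNA of sorted cells was amplified (NuGEN Ovation RNA-Seq System V2), and libraries were made with TruSeq Nano DNA. Reads were mapped to mm10 with Bowtie2 and counted with HTSstation. The authors deposited estimated counts per gene (99.6% of nonzero values not whole, before any scaling) and RPKM values, which entered 1 alternative only. No test on this table used columns beyond the 16 libraries except an alternative fit of all 40.

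Estimated counts were rounded and tested with edgeR 4.0.16 (R 4.3.3) by a robust quasi-likelihood fit of 4 group means, after TMM scaling and filterByExpr. Calls needed a Benjamini-Hochberg adjusted p under 0.05 and an absolute log2 difference above 1.5. An SE is the log2 difference divided by the square root of F. Alternatives used limma 3.58.1 (voom, or log2(RPKM + 1)), DESeq2 1.42.0, other scalings, filters, blocks and left-out libraries. A fold against a group at 0 was taken against 3 counts per library.

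The groups, members and gene lists were chosen with earlier results of these data known. Named genes had a symbol other than a Gm number or Rik name and over 3 counts in at least 1 library of every group, and were not mitochondrial and not one of Xist, Ddx3y, Eif2s3y, Kdm5d or Uty. They were the 6 interactions of each sign with the largest absolute log2 value (mean log2 CPM of at least 5, no overlap in at least 1 cell type), the 5 genes of each direction class whose smaller change was largest (mean log2 CPM of at least 3), up to 4 members of each list by interaction p and level, Apc, Xist and the markers. Other genes are named within a count or list and were chosen after their values were seen. Gene names and coordinates came from GENCODE vM21 on mm10, and promoters from RefSeq on GRCm38.p6. All 24 pairs of libraries within a group differed by more than sampling noise. The labels do not say whether healthy libraries came from separate animals beyond their titles, so p-values measure the spread between libraries. In counts simulated for the interaction over 20073 genes, edgeR recovered 10% of 4-fold and 46% of 8-fold changes with 2 false calls. Each simulated gene had the same level in every group before the change, with the spread fitted to all 16 libraries. Only well-counted genes were changed.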

Additional observations from a re-analysis of the deposited data

Results flagged for a closer look

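In 33 of 180 sets of 4 libraries (18.3%, where chance gives about 1 in 20) the highest or lowest library lay far from the other 3. Healthy stromal 4 stood out most often. Its fibroblast sum was 20331.8 CPM and its epithelial sum 127.3 CPM. It was also high for Podn (249.1 CPM), Gfpt2 (1354 CPM), Dpt (2654.9 CPM), Pdgfra (559.1 CPM), Ces1d (257.8 CPM), Ces1g (35.4 CPM), Hpgd (134.6 CPM) and Lypd8 (39.8 CPM). At lower levels it was the highest of its group for Dsc3 (3.37 CPM), Krt20 (3.01 CPM), Cyp2c55 (2.87 CPM), Sprr2a3 (0.922 CPM), Sprr2a1 (0.886 CPM), Trim31 (0.532 CPM), Cfi (0.496 CPM), Hao2 (0.355 CPM) and Sult1b1 (0.284 CPM). Healthy stromal 1 had the highest smooth muscle sum (1353.9 CPM).

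Healthy epithelial 1 was the highest of its group for genes that rose in tumor, namely Pnliprp1 (13.0 CPM), Pnliprp2 (9.2 CPM), Dsc3 (8.45 CPM), Gfpt2 (4.47 CPM), Pdgfra (3.48 CPM), Gulo (1.66 CPM) and Cygb (0.414 CPM). Healthy epithelial 4 was apart in B and plasma cell markers (562.9 CPM), T cell markers (21.6 CPM) and Plxdc2 (3.58 CPM). The TMM factors of healthy epithelial 1 and 4 were 0.5348 and 0.1692, which raises the CPM values of these libraries. Among tumor epithelial libraries, the first was apart in erythroid markers (72.3 CPM) and Fbln1 (67.7 CPM) and the third in Dpep1 (0.832 CPM).

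For 21 of the genes chosen as the strongest interactions or direction classes, the interaction was called by edgeR's test. They were chosen by these same values, so the calls follow from the choice and only describe it. In log2 units the positive interactions were 9.85 for Scube1, 8.87 for Cygb, 8.45 for Tgfb2, 8.36 for Pcdh7, 8.28 for Podn, 7.95 for Gria3, 7.93 for Gfpt2, 7.77 for Igsf10, 7.44 for Fbln1, 7.23 for Pdgfra and 6.99 for Plxdc2. The negative ones were -9.86 for Sult1b1, -9.37 for Slc6a14, -9.21 for Hao2, -9.13 for Cyp2c55, -9.12 for Lypd8, -9.01 for Sprr2a1, -9.01 for Sprr2a3, -8.4 for Tlr1, -8.13 for Trim31 and -7.59 for Krt20.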

How the results depend on the processing

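The 6 counts (positive and negative interactions, same direction higher and lower, epithelium higher with stroma lower, and the reverse) stayed within 1.5 times their value under limma-voom, RLE size factors, no filter, no fold threshold, no mitochondrial genes, a fit of all 40 libraries and an animal block. DESeq2 gave 235 genes lower in both and 212 higher in epithelium and lower in stroma. With at least 10 counts in every library, which tests fewer genes, the 6 counts were 458, 761, 67, 66, 21 and 48. On log2(RPKM + 1), which compresses low genes, they were 912, 215, 54, 10, 10 and 3. A separate fit of each cell type gave 184, 82, 71 and 67 for the classes in the same and opposite directions. With Xist as a covariate the opposite classes held 65 and 41 genes. Without tumor stromal 1 and 2, 148 genes were higher in both, 89 lower in both and 64 higher in epithelium and lower in stroma. Leaving out healthy epithelial 4 as well, an alternative chosen after seeing the data, gave 171, 92 and 89. For DESeq2, the separate fits and Xist the cause was not tested.

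Leaving out 1 library at a time gave 1202 to 1566 positive and 1191 to 1595 negative interactions, 226 to 362 and 104 to 153 genes in the same direction, 94 to 147 higher in epithelium and lower in stroma, and 90 to 220 of the reverse kind, the highest without healthy stromal 4. Same-numbered libraries deviated together little or not at all (r from -0.136 to 0.226, over 0.1 in 5 of 24 pairs). The 3 pairs from 1 animal did not (-0.0325 to 0.0424). The labels give number 3 to both tumor stromal 3 and 4, so these values do not settle whether the numbers pair libraries. With the replicate number as a block the interaction counts were 1250 and 1247, the same-direction counts 280 and 124 and the opposite counts 91 and 122. Of 2509 values of single genes under these alternatives 2311 kept their direction and side of the threshold, 198 lost the call and 0 reversed, and 36 of 68 named interactions were called in every alternative. RLE moved the median stromal change over all genes from 0.09 to -0.02, and log2(RPKM + 1) the median interaction from -0.05 to 0.27. In the simulation with 4 libraries a group, changes of 4-fold were mostly not called by the interaction test. It gave each gene 1 level in all groups before the change, so it does not show the recovery of genes near 0 in 1 group.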

Other observations

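Some endothelial genes were higher in tumor than in healthy epithelium. Flt1, a VEGF receptor, was at 132.5, 208.5, 115.5 and 151.8 CPM in tumor epithelium and 14.3, 0.218, 0.83 and 33.6 CPM in healthy epithelium (log2 3.66, edgeR adjusted p = 0.0376), and Cdh5, the cadherin of endothelial junctions, was at 57.7, 59.6, 40.9 and 50.8 CPM against 3.73, 0.0435, 0.319 and 4.82 CPM (log2 4.64, edgeR adjusted p = 0.0136). Neither interaction passed the test (edgeR adjusted p = 0.0934 and 0.0714). Pecam1 and Kdr, which mark the same cells, were at 0.594 to 4.85 CPM and 0.499 to 2.05 CPM in tumor epithelium. These markers thus did not move together, and the doubted pair showed the same split, with Flt1 at 139.5 and 171.4 CPM and Pecam1 at 4.79 and 11.6 CPM.

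Mural cell markers separated the tumor stromal libraries. Pericyte markers summed to 16.95 and 41.47 CPM in the doubted pair, 436 and 444.3 CPM in tumor stromal 3 and 4, and 381.2 to 882.3 CPM in healthy stroma. Smooth muscle markers summed to 69.7 to 157.7 CPM in all 4 tumor stromal libraries and 362.6 to 1353.9 CPM in healthy stroma.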
